A study of Arabidopsis thaliana with 58 samples.

Results

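DNA methylation of the *FWA* promoter was described in 4 transgenic *Arabidopsis thaliana* libraries that carry dCas9-MQ1v without a partner protein, and was set against 3 libraries of unmethylated *fwa*. These 7 libraries, out of 58 samples in the series, were chosen by their labels and not by a measured value. Earlier results of these data were, however, known when the libraries were chosen. All 7 libraries were made from leaf tissue of plants aged 4 to 5 weeks, with Columbia-0 as the labelled ecotype, and were measured by BS-PCR-seq (bisulfite treatment, PCR of a target region and sequencing of the products). The *fwa* plants carry no transgene. The dCas9-MQ1v construct was introduced into *fwa* plants that also carry the *rdr6* mutation, which reduces transgene silencing, and first-generation lines were used. The labels do not give this background, and since no *fwa rdr6* library was used here, the construct and *rdr6* cannot be told apart as the source of any difference from *fwa*. Titles begin with BS-PCR for the dCas9-MQ1v libraries and with BS-PCRseq for those of *fwa* and Col-0. A difference between these library sets therefore cannot be told apart from the construct either. Libraries of 3 Col-0 plants, in which *FWA* is methylated, and of 4 plants with TRBIP1-dCas9-MQ1v, the same enzyme with TRBIP1 added, served as references. The replicate labels do not say which line or plant each library came from. Each library is called a plant in this text, and the p values concern only these libraries.

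*FWA* encodes a homeodomain transcription factor that delays flowering when it is expressed in leaves. In Col-0 its promoter and the tandem repeats at its 5′ end are methylated and the gene is silent, whereas the *fwa* epiallele has lost this methylation heritably without a change in sequence. MQ1 is a bacterial methyltransferase that methylates cytosine only when guanine follows it (CG), and MQ1v is a variant of improved specificity that a deactivated Cas9 carries to a site given by guide RNAs, here directed at *FWA*. Plants also methylate cytosine in CHG and CHH, where H is A, C or T. CG methylation is maintained by MET1, CHG methylation largely by CMT3, and CHH methylation at *FWA* is placed by RNA-directed DNA methylation.

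The level of a cytosine was the percentage of its reads that still showed C after bisulfite treatment. In the 3 amplified regions on chromosome 4, 74 cytosines were covered by at least 10 reads, and all are on the minus strand. Region 1 (13038143 to 13038272 in TAIR10) lies upstream of *FWA* and holds 3 CG and 19 CHH sites. Region 2 (13038356 to 13038499) spans the start of the gene at 13038360, with the untranslated exon 1 and part of the first intron, and holds 5 CG, 2 CHG and 21 CHH sites. Region 3 (13038568 to 13038695) covers the end of exon 2, also untranslated, and part of the following intron, and holds 6 CG, 1 CHG and 17 CHH sites. Region 1 is shown whole because it held the highest levels of the dCas9-MQ1v plants in both CG and CHH context. The measured minus strand is written 5′ to 3′ from the RefSeq TAIR10.1 sequence, so that the first base is nearest to *FWA*, and CG sites are in capitals.
Region 1: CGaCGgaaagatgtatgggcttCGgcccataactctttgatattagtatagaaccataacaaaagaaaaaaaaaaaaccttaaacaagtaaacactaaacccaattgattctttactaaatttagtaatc
From the left, the capitals are the CG sites at 13038272, 13038269 and 13038250. The stretch around the third of them (13038208 to 13038258) is shown again with capitals on the 8 CHH cytosines that differed most from *fwa*.
CHH stretch: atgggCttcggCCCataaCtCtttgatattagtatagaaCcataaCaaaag
From the left, these capitals are at 13038253, 13038247, 13038246, 13038245, 13038240, 13038238, 13038219 and 13038213.

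The median depth per cytosine was 33542 to 41197 reads in the dCas9-MQ1v libraries, and no cytosine had fewer than 15778. Among the *fwa* libraries, the one labelled Rep2 had a median of 42529 reads, while rep1 and rep2 had 802796 and 678158. The widest 95% Wilson interval of any site in these 7 libraries spanned 1.43 percentage points, which covers counting error only, since PCR reads are not independent molecules. In a further amplicon away from *FWA*, CHH cytosines on average read as C at 0.0594% to 0.0727% in the dCas9-MQ1v libraries and at 0.0568% to 0.0607% in *fwa*. The shallower *fwa* Rep2 had a CG level of 0.228%, against 0.0806% and 0.0835% in the deeper pair, and whether depth or library set accounts for this was not tested. The CG difference described below was 17.6 percentage points against *fwa* Rep2 alone and 17.7 against the deeper pair.

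CG methylation was present in every dCas9-MQ1v plant, and 1 plant stood far above the other three. The mean level over the 14 CG sites was 43.1% in Rep1, 10.5% in Rep2, 8.52% in Rep3 and 9.19% in Rep4, against 0.228%, 0.0806% and 0.0835% in the *fwa* plants. No dCas9-MQ1v plant overlapped *fwa*, and the lowest was far above the highest *fwa* level. The group means were 17.8% ± 16.9 (SD, n = 4) and 0.131% ± 0.0842 (SD, n = 3), a difference of 17.7 percentage points. By a two-sided exact permutation test the difference gave p = 0.0857, or 0.129 after Benjamini-Hochberg adjustment over 9 tests, so it did not pass the threshold of 0.05. With 4 plants against 3 the smallest possible p is 0.0286, and it is missed here because splits that group Rep1 and Rep2 with 1 further dCas9-MQ1v plant, against the fourth and the *fwa* plants, give a wider difference than the true labels. On the logit scale the adjusted p of the same permutation test was 0.0429. Without Rep1 the mean level was 9.40% and the difference from *fwa* was 9.27 percentage points.

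As a mean over sites, the CG level of every dCas9-MQ1v plant was highest in region 1, upstream of the gene. Not every site of region 1 was high, since 13038250 was below the region 2 site 13038385 in every dCas9-MQ1v plant. The region 1 level was 60.8%, 34.8%, 17.5% and 32.1% in Rep1 to Rep4, against 0.0993% to 0.322% in *fwa*. In region 2 the same plants had 37.9%, 3.94%, 7.10% and 3.71%, and in region 3 they had 38.6%, 3.75%, 5.21% and 2.29%. In each of the 3 regions the lowest dCas9-MQ1v plant was above the highest *fwa* plant, in which no region passed 0.322%. The exact permutation test gave p = 0.0571 for CG in region 1 and p = 0.2 in both region 2 and region 3. The adjusted values were 0.229, 0.320 and 0.320 over 8 combinations of region and context. On the logit scale the same permutation test gave p = 0.0286 and an adjusted p of 0.0571 in each of the 3 regions. Without Rep1 the differences from *fwa* were 28.0, 4.77 and 3.65 percentage points in regions 1, 2 and 3.

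**Figure D1:**
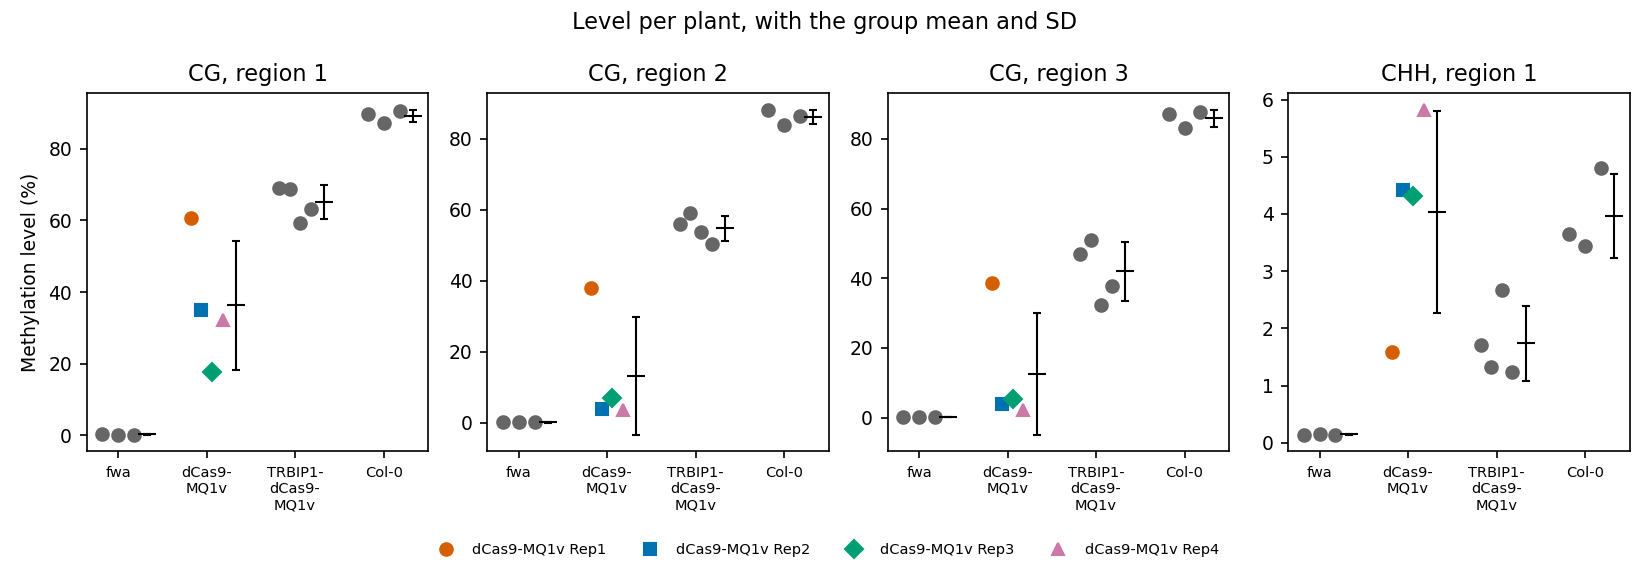
Methylation level in percent (vertical axis, a separate scale in each panel) for CG in regions 1, 2 and 3 and for CHH in region 1. Each point is 1 plant of *fwa*, dCas9-MQ1v, TRBIP1-dCas9-MQ1v or Col-0, coloured markers are the 4 dCas9-MQ1v plants, and the bar beside each group is its mean with the SD; Rep1 is the highest dCas9-MQ1v plant in all 3 CG panels, at 60.8%, 37.9% and 38.6%, and the lowest in the CHH panel, at 1.58%.

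All 14 CG sites were higher in every dCas9-MQ1v plant than in every *fwa* plant, where 37 of all 74 cytosines (50%) had this order. The site nearest to the gene in region 1, 13038272, had the highest mean, with 91.1%, 60.1%, 16.9% and 57.6% in Rep1 to Rep4 against 0.0931% to 0.285% in *fwa*. It was the highest CG site of 3 plants, and in Rep3 it was below its neighbour. That neighbour, 13038269, which is 3 bases away, had 69.95%, 35.3%, 21.7% and 30.4%. The third site, 13038250, had 21.3%, 9.11%, 14.0% and 8.39%, and it was the CG site where the 4 plants lay closest together in proportion. Its mean of 13.2% ± 5.95 (SD, n = 4) differed from *fwa* with p = 0.0286 by the exact permutation test (adjusted p = 0.211 over 74 cytosines), and the other 2 sites of region 1 gave p = 0.0571. The 3 sites made up 71.2% and 74.9% of the summed CG level in Rep2 and Rep4, 44.1% in Rep3 and 30.2% in Rep1.

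Among the 11 CG sites of regions 2 and 3, 2 stood above their neighbours. In region 2, exon 1 holds the sites at 13038361, 13038364 and 13038385. The third of these had 66.3%, 13.1%, 16.4% and 13.5%, whereas 13038361 had 27.1%, 1.83%, 5.52% and 1.61% and 13038364 had 37.1%, 1.64%, 6.76% and 1.18%. Its counterpart in region 3, 13038596, had 62.0%, 9.42%, 10.2% and 6.12%. These were the highest sites of their region in each of the 4 plants. In TRBIP1-dCas9-MQ1v the same 2 sites had the highest means of their regions, 92.4% and 67.9%. Both sites lie in nearly the same letters, shown with the measured CG in capitals.
13038385: ggaccaatggCGaaaagcaaa
13038596: cgaccaatgtCGaaaagcaaa
In the next intron, 13038468 had 42.1%, 2.40%, 4.89% and 1.71% and 13038476 had 16.9%, 0.749%, 1.88% and 0.558%. The lowest site of every dCas9-MQ1v plant, and of every TRBIP1-dCas9-MQ1v plant, was 13038686, at the far end of region 3. The dCas9-MQ1v plants had 4.59%, 0.365%, 0.660% and 0.343% there. Even at this site each dCas9-MQ1v plant was above the *fwa* values of 0.157%, 0.0855% and 0.0666%. The remaining sites of region 3 were 13038575 with 49.0%, 3.02%, 6.59% and 1.52%, 13038582 with 55.3%, 6.04%, 6.17% and 3.58%, 13038606 with 50.2%, 3.11%, 6.20% and 1.66%, and 13038678 with 10.0%, 0.536%, 1.36% and 0.501%. In Rep2 and Rep4, 3 of the 14 CG sites reached 10%, in Rep3 5 did and in Rep1 13 did. For the 11 sites the exact permutation test gave p from 0.0857 to 0.429 and adjusted p from 0.235 to 0.587.

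**Figure D2:**
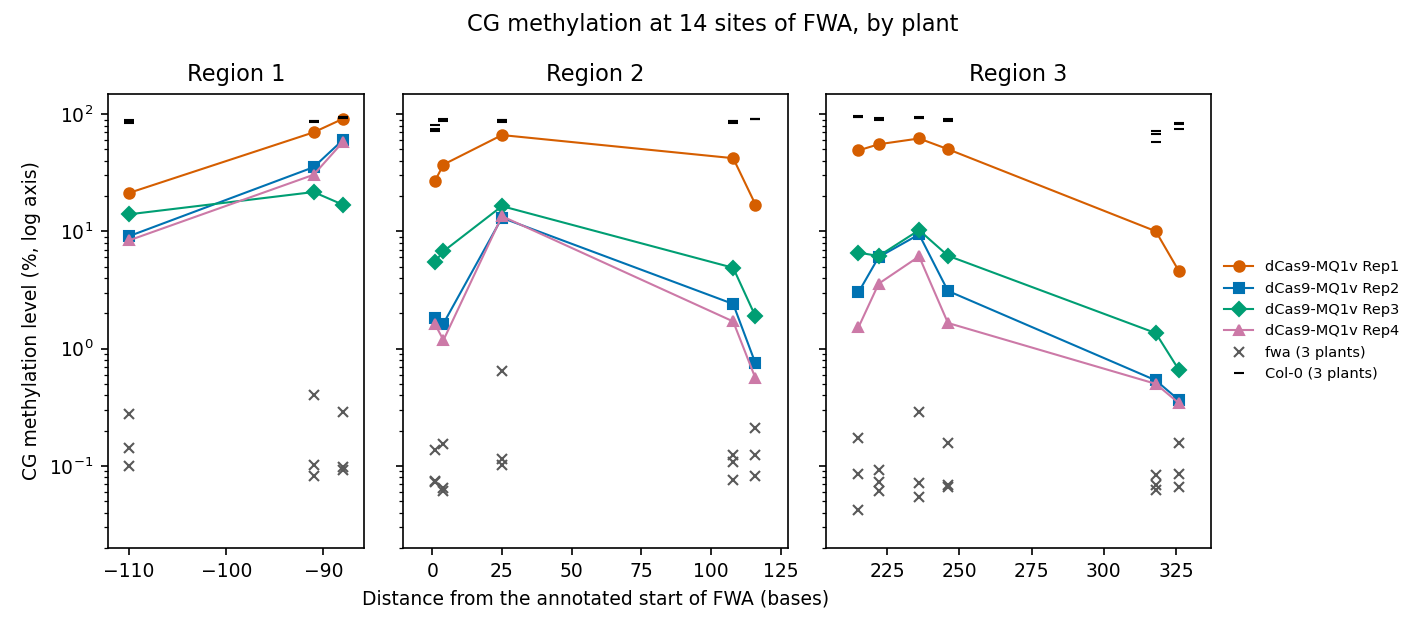
CG methylation level in percent (vertical log axis) against the distance in bases from the annotated start of *FWA* (horizontal axis), in 1 panel for each region. Coloured lines are the 4 dCas9-MQ1v plants, crosses the 3 *fwa* plants and dashes the 3 Col-0 plants; at all 14 sites the dCas9-MQ1v plants lie above *fwa* and below Col-0, and Rep1 is the highest of the 4.

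Rep1 was the highest dCas9-MQ1v plant at 14 of 14 CG sites, but by unequal factors. In region 1 it was 2.03 to 2.40 times the mean of the other 3 plants, and over the 11 sites of regions 2 and 3 it was 4.63 to 15.9 times that mean. The order of the sites was nevertheless alike. Spearman's rho over the 14 CG sites was 0.802 to 0.974 between pairs of dCas9-MQ1v plants. Against the Col-0 mean it was 0.310 to 0.569, against the *fwa* mean 0.398 to 0.618, and against the TRBIP1-dCas9-MQ1v mean 0.719 to 0.855. These are descriptions across sites of the same libraries and amplicons, which are not independent of each other.

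Regions 2 and 3 lie in 2 copies of a tandem repeat, and 4 CG sites of one copy could be matched to a CG of the other, 210 or 211 bases away. The pair at 13038468 and 13038678 is identical over the 21 bases around the CG, yet the site nearer to the start was higher in 4 of 4 dCas9-MQ1v plants. The shared letters are shown once.
13038468 and 13038678: atcgataaatCGtaagaagaa
The first copy had 42.1%, 2.40%, 4.89% and 1.71% and the second 10.0%, 0.536%, 1.36% and 0.501%. In Col-0 the means were 86.2% and 65.8%, in the same order. The next pair, 13038476 and 13038686, differs in 1 of 21 bases, and it was likewise higher in the first copy in 4 of 4 plants. In Col-0 its means were 91.1% and 80.2%, again in the same order.
13038476: tcccacaaatCGataaatcgt
13038686: tcctacaaatCGataaatcgt
At 13038385 and 13038596 the first copy was again higher in 4 of 4 plants, with means of 27.3% and 21.9%, although in Col-0 the second copy was higher (88.0% and 94.0%). At 13038364 and 13038575 the first copy was higher in 1 of 4 plants, Rep3, and in Col-0 the second copy was higher (89.3% and 94.95%). In TRBIP1-dCas9-MQ1v the first copy had the higher mean in each of these pairs. The means were 37.5% and 6.21% at 13038468 and 13038678, and 10.55% and 2.91% at 13038476 and 13038686. At 13038385 and 13038596 they were 92.4% and 67.9%, and at 13038364 and 13038575 they were 69.9% and 56.2%. The copies share a plant and a library, so these counts were not tested.

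**Figure D3:**
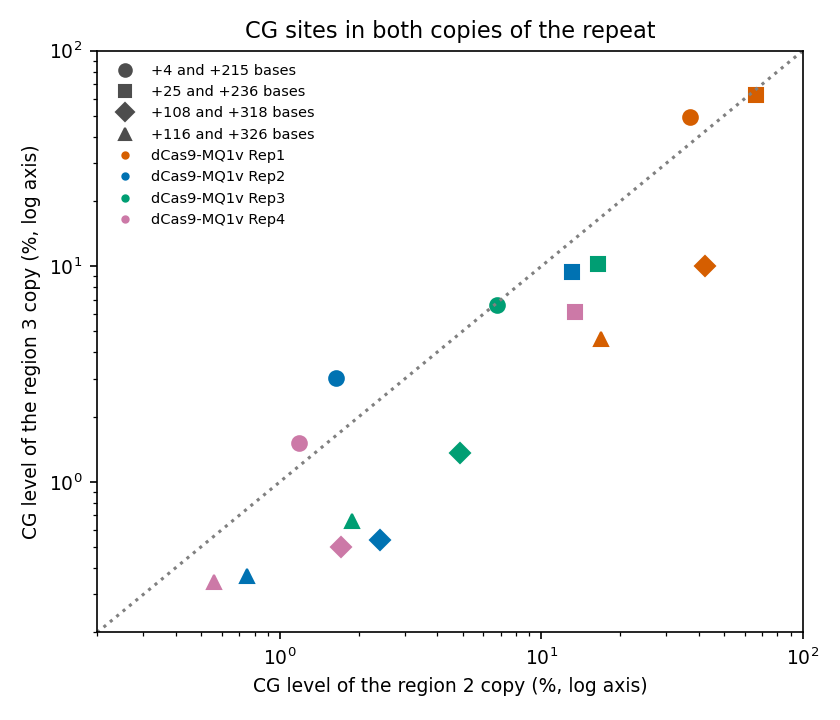
CG level in percent of the region 3 copy (vertical log axis) against the region 2 copy (horizontal log axis) for 4 matched CG sites, named by their distance from the start of *FWA* (marker shape), in the 4 dCas9-MQ1v plants (colour). The dotted line marks equal levels; the pairs at +108 and +318 and at +116 and +326 bases lie below it in all 4 plants.

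The imbalance between regions was measured within each plant as the ratio of the region 1 CG level to the mean of the region 2 and region 3 levels. It was 1.59 in Rep1, 9.07 in Rep2, 2.85 in Rep3 and 10.7 in Rep4, against 1.03 to 1.05 in Col-0 and 1.25 to 1.43 in TRBIP1-dCas9-MQ1v. Every dCas9-MQ1v plant was above every plant of both references. On the log2 scale the mean ratio was 2.20 ± 1.33 (SD, n = 4) in dCas9-MQ1v. It was 0.0536 ± 0.0138 (SD, n = 3) in Col-0, and the exact permutation test gave p = 0.0571 (adjusted p = 0.0571 over 2 tests). Against TRBIP1-dCas9-MQ1v, with a mean of 0.434, the exact permutation test gave p = 0.0286 (adjusted p = 0.0571). In *fwa* the ratio was 1.30 to 1.56 at levels under 0.322%.

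CHH methylation was also present in the dCas9-MQ1v plants, and it was concentrated in region 1. The mean over 57 CHH sites was 0.854%, 1.56%, 1.56% and 2.02% in Rep1 to Rep4, against 0.114% to 0.136% in *fwa*. The groups did not overlap, and the means were 1.497% ± 0.481 (SD, n = 4) and 0.123% ± 0.0115 (SD, n = 3). The exact permutation test gave p = 0.0571 and an adjusted p of 0.103, and on the logit scale the adjusted p was 0.0429. In region 1 the levels were 1.58%, 4.42%, 4.31% and 5.82%, against 0.139% to 0.152% in *fwa* (exact permutation p = 0.0571, adjusted p = 0.229 over 8 tests). Rep1, the highest plant in CG, was the lowest in region 1 CHH. It was the lowest of the 4 plants at 18 of 19 CHH sites there and the highest at none.

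The CHH signal of region 1 stood mainly at 6 cytosines within 12 bases of the CG site 13038250, a group chosen after its values were seen. Over these 6, the mean level was 4.12%, 11.9%, 10.97% and 15.6% in Rep1 to Rep4, against 0.177% to 0.198% in *fwa*. The highest single site was 13038246, the middle of 3 adjacent cytosines, with 6.24%, 18.3%, 16.7% and 24.1% against 0.186% to 0.236% in *fwa*. On either side of it, 13038245 had 3.76%, 8.35%, 7.75% and 11.8%, and 13038247 had 1.20%, 4.76%, 5.29% and 6.05%. The site at 13038253 had 5.72%, 15.7%, 14.2% and 21.1%. Downstream along the minus strand, 13038240 had 4.96%, 14.0%, 12.5% and 17.3% and 13038238 had 2.85%, 10.1%, 9.37% and 13.4%. In all 6 sites Rep4 was the highest plant and Rep1 the lowest, and each gave p = 0.0571 by the exact permutation test (adjusted p = 0.211 over 74 cytosines).

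Farther away, the other 13 CHH sites of region 1, 31 to 93 bases from a CG, had mean levels of 0.414%, 0.977%, 1.24% and 1.30%, against 0.115% to 0.131% in *fwa*. Both references also had more CHH methylation near the CG than farther away. The means were 8.67% and 1.80% in Col-0, and 4.48% and 0.471% in TRBIP1-dCas9-MQ1v. In dCas9-MQ1v they were 10.7% and 0.982%. In dCas9-MQ1v the highest of the 13 sites was 13038219, with 0.995%, 3.43%, 4.18% and 4.60%. It also had the highest *fwa* mean of the CHH sites, 0.266%. Next came 13038213, with 0.714%, 1.34%, 1.92% and 1.87%. Across region 1, 16 of 19 CHH sites were higher in every dCas9-MQ1v plant than in every *fwa* plant. Over the 3 regions, 22 of 57 CHH sites (38.6%) and 37 of all 74 cytosines (50%) had this order. At the other 3 CHH sites of region 1, Rep2 to Rep4 were above every *fwa* plant and Rep1 was not. The processing stated for the whole-genome data removes a read once over 3 CHH cytosines in a row are methylated, and whether this lowered the levels at such adjacent sites was not tested.

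**Figure D4:**
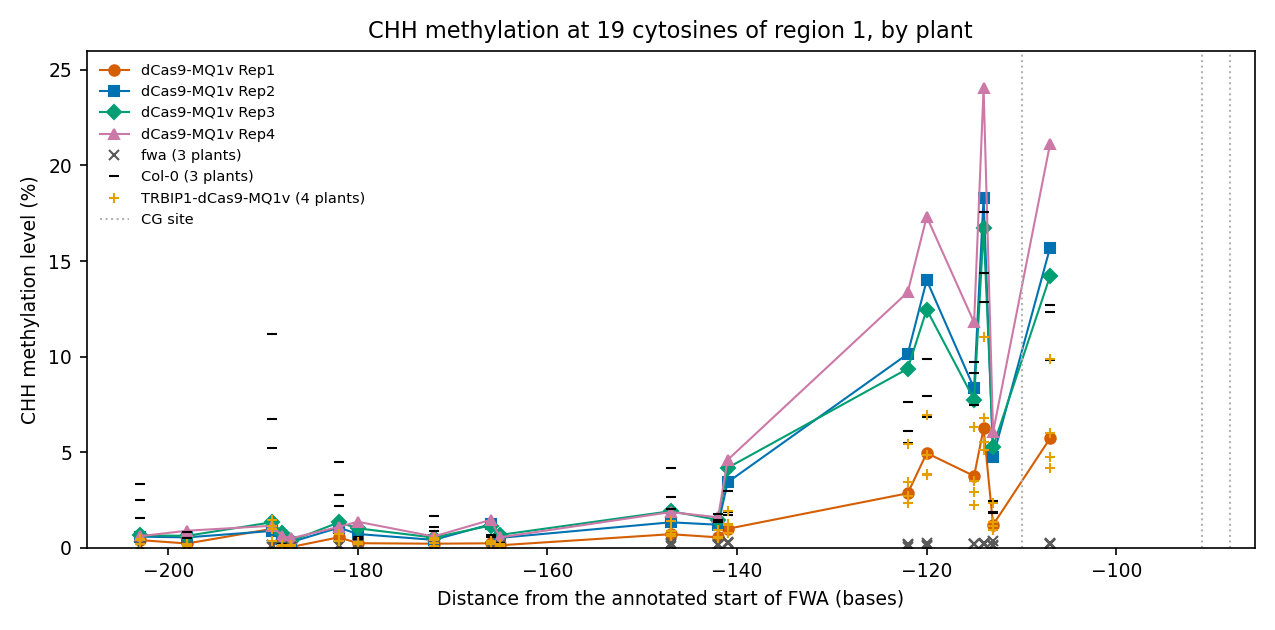
CHH methylation level in percent (vertical axis) at 19 cytosines of region 1 against the distance in bases from the start of *FWA* (horizontal axis). Coloured lines are the 4 dCas9-MQ1v plants, and other markers are the *fwa*, Col-0 and TRBIP1-dCas9-MQ1v plants, with dotted lines at the 3 CG sites; Rep2, Rep3 and Rep4 are at 18.3%, 16.7% and 24.1% at the highest site, where Rep1 is at 6.24%.

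In regions 2 and 3 the CHH level was under 1% in every dCas9-MQ1v plant. It was 0.594%, 0.148%, 0.223% and 0.131% in region 2, where *fwa* had 0.103% to 0.140%, and the groups overlapped. In region 3 it was 0.357%, 0.102%, 0.125% and 0.107%, against 0.0966% to 0.128%. The exact permutation test gave p = 0.2 and 0.686 (adjusted p = 0.320 and 0.686). In these regions 5 of 21 and 1 of 17 CHH sites were higher in every dCas9-MQ1v plant than in every *fwa* plant. Over all 3 regions this order held at 37 of 74 cytosines (50%). Rep1 was the highest dCas9-MQ1v plant at 20 of 21 CHH sites of region 2 and at 17 of 17 of region 3. The largest value was at 13038428, with 2.48% in Rep1, against 0.224%, 0.473% and 0.163% in the others. One site, 13038665, had a lower mean in dCas9-MQ1v than in *fwa* (0.148% and 0.163%).

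CHG methylation did not separate the groups. Over the 3 CHG sites the level was 1.19%, 0.146%, 0.168% and 0.0929% in Rep1 to Rep4, against 0.0803% to 0.107% in *fwa*, so that Rep4 lay within the *fwa* range and Rep1 was above the other 6 plants. The difference of 0.307 percentage points gave p = 0.486 by the exact permutation test (adjusted p = 0.543), and without Rep1 it was 0.0444. The site at 13038583 had 1.86%, 0.119%, 0.129% and 0.101%, above all *fwa* plants (0.0568% to 0.0920%). Its cytosine directly precedes that of the CG site 13038582 in a run of 2. At 13038491 the plants had 1.41%, 0.210%, 0.274% and 0.132%, and at 13038499 0.284%, 0.108%, 0.101% and 0.0452%, both overlapping *fwa*.
13038583: aaagcaaaaaCCGtaaagcgg
13038491: atctgattgtCAGtatcccac
13038499: caacaataatCTGattgtcag

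Single cytosines were then tested over all 74 sites. By the exact permutation test 0 of 74 (0%) had an adjusted p under 0.05, in a design whose smallest p is 0.0286. At an unadjusted p under 0.05 there were 3, named here after their values were seen. They were the CG site 13038250 and the CHH sites 13038157 (0.405%, 0.585%, 0.653% and 0.608%) and 13038171 (0.997%, 0.885%, 1.34% and 1.16%), all in region 1. A quasi-binomial model of the read counts called 25 of 74 sites higher in dCas9-MQ1v at an adjusted p under 0.05 and none lower. Called were all 22 sites of region 1, 2 of 28 in region 2 and 1 of 24 in region 3. Those of region 1 include the 3 CHH sites where Rep1 was not above every *fwa* plant. In this model libraries with more reads weigh more, unlike in the exact permutation test. These 25 were 6 CG and 19 CHH sites. Apart from any test, the mean was higher than in *fwa* at 73 of 74 cytosines, and without Rep1 at 63. The 11 that were then lower were CHH sites, 3 in region 2 and 8 in region 3.

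Against Col-0, dCas9-MQ1v plants were lower in every context on average but not everywhere in region 1. All 14 CG sites were lower in every dCas9-MQ1v plant than in every Col-0 plant, where 60 of 74 cytosines (81.1%) had this order and 0 of 74 (0%) the opposite one. The Col-0 plants had CG levels of 88.0%, 84.3% and 87.8%, and dCas9-MQ1v minus Col-0 was -68.9 percentage points. For CHG and CHH this difference was -12.7 and -3.67 percentage points. Each of the 3 tests gave the smallest possible p of 0.0286 by exact permutation and an adjusted p of 0.0643, so none passed the threshold on the percent scale, and on the logit scale each had an adjusted p of 0.0429. By site, the dCas9-MQ1v mean was 1.86% of the Col-0 mean at 13038686 and 60.1% of it at 13038272. In region 1 CHH, by contrast, dCas9-MQ1v had a mean of 4.03% ± 1.77 (SD, n = 4), and the Col-0 plants had 3.66%, 3.44% and 4.81%. The 2 groups overlapped, with p = 1.00 by the exact permutation test and a difference of 0.0660 percentage points. Rep2, Rep3 and Rep4 exceeded all 3 Col-0 plants at 11, 10 and 13 of the 19 sites, whereas Rep1 was below all 3 at 19 of 19. At 13038246 Col-0 had 12.9% to 17.6%, between the values of Rep1 and Rep2. In regions 2 and 3 Col-0 had CHH levels of 6.00% and 5.46% on average, and no dCas9-MQ1v plant exceeded 0.594%.

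The plants with TRBIP1 added had higher mean CG levels than dCas9-MQ1v in all 3 regions. Their CG level had a mean of 51.5% ± 5.67 (SD, n = 4) over the 14 sites, and even Rep1, at 43.1%, was below the lowest of them, at 45.8% (exact permutation p = 0.0286, adjusted p = 0.0643). By region, dCas9-MQ1v minus TRBIP1-dCas9-MQ1v was -28.8 percentage points in region 1, -41.5 in region 2 and -29.6 in region 3 (exact permutation p = 0.0571, 0.0286 and 0.0857, adjusted p = 0.0857, 0.0643 and 0.110 over 18 tests). Rep1 overlapped their range in regions 1 and 3. At 5 of the 14 CG sites, 13038250, 13038269, 13038361, 13038364 and 13038385, every dCas9-MQ1v plant was below every TRBIP1-dCas9-MQ1v plant. Of all 74 cytosines, 10 (13.5%) had this order and 1 (1.35%) the opposite one. Rep1 fell within their range at 5 of the 14 CG sites and above it at 4, and Rep2, Rep3 and Rep4 were below it at all 14. Region 1 CHH had means of 4.03% in dCas9-MQ1v and 1.74% ± 0.652 (SD, n = 4) with TRBIP1. That difference of 2.30 percentage points gave p = 0.0857 (exact permutation test, adjusted p = 0.110), and Rep1, at 1.58%, lay within the TRBIP1-dCas9-MQ1v range of 1.24% to 2.66%. In regions 2 and 3 the order of the CHH means was the opposite, with 0.274% and 0.173% in dCas9-MQ1v and 1.21% and 0.597% with TRBIP1 (exact permutation p = 0.0571 and adjusted p = 0.0857 in each).

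The files also held reads from an amplicon about 6.3 kb from the start of *FWA*, in *MSH3*, a DNA mismatch repair gene that lies next to *FWA* on the opposite strand. Its 27 cytosines (13044647 to 13044770, plus strand) include 7 CG sites. Each of these was higher in every dCas9-MQ1v plant than in every *fwa* plant, where 9 of all 27 cytosines (33.3%) were. The CG level was 22.6%, 8.47%, 11.6% and 6.31% in Rep1 to Rep4, against 0.355%, 0.0812% and 0.0610% in *fwa*. Here too Rep1 was the highest plant and the groups did not overlap (exact permutation p = 0.0571, adjusted p = 0.0857 over 3 contexts). In Col-0 the level was 77.4% to 82.9%, and with TRBIP1 it had a mean of 18.6%, from which dCas9-MQ1v differed by -6.34 percentage points (exact permutation p = 0.229, adjusted p = 0.257).

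Within the *MSH3* amplicon 2 sites in the coding sequence carried most of the signal. The site at 13044744 had 63.9%, 28.9%, 36.9% and 21.2%, and 13044701 had 51.3%, 18.5%, 28.0% and 12.9%. The lowest site was 13044726, also in the coding sequence and between the other two, with 2.72%, 1.44%, 1.34% and 0.884%. The 2 high sites and the low one are shown on the plus strand.
13044744: gagcttcttgCGaaatgaagc
13044701: gtgtgatcccCGacacttgaa
13044726: ttccaaatttCGaatagcgag
The other 4 CG sites had means of 2.67% to 6.96% in dCas9-MQ1v. In Col-0, the high sites were at means of 73.98% and 80.2% and the low one at 73.7%. TRBIP1-dCas9-MQ1v had the same order as dCas9-MQ1v, with means of 54.9% at 13044744, 45.5% at 13044701 and 1.70% at 13044726. The mean CHH level of the amplicon was 0.0594% to 0.0727% in the 4 plants. At the CHH site 13044770 the dCas9-MQ1v plants had 0.0983% to 0.158%, against 0.00581% to 0.0526% in *fwa* (exact permutation p = 0.0286, not adjusted).

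**Figure D5:**
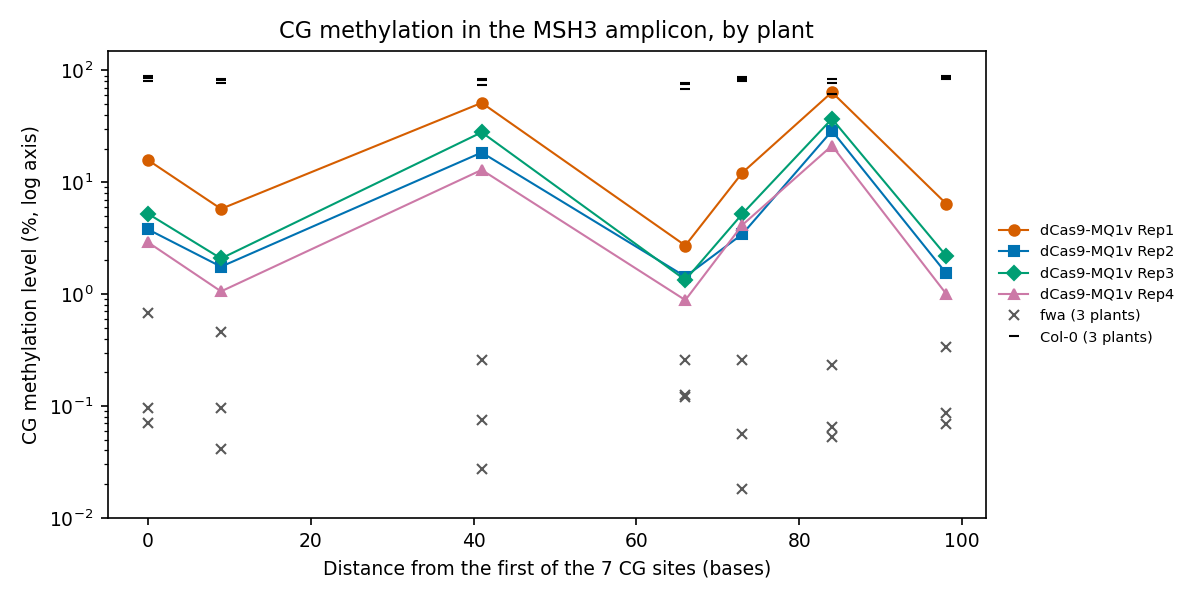
CG methylation level in percent (vertical log axis) at the 7 CG sites of the *MSH3* amplicon against the distance in bases from the first of them (horizontal axis). Coloured lines are the 4 dCas9-MQ1v plants, crosses the *fwa* plants and dashes the Col-0 plants; the sites with 63.9% and 51.3% in Rep1 are the 2 highest in each of the 4 plants.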

How the data were processed

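The libraries were made and mapped by the authors (BSMAP 2.90, TAIR10, per the labels and the methods). For each cytosine the deposited files give 2 counts, reads with C and all reads, and their fraction, which matched the counts within 0.0005. A plant's level was averaged over cytosines with at least 10 reads (outside the 3 regions, 1000), each cytosine with equal weight. The regions list 93 cytosines, of which 19 never reached 10 reads. Groups came from the labels. Group means were compared by enumerating all splits of the plants (two-sided exact permutation), with Benjamini-Hochberg adjustment within 5 families (9, 8, 2, 3 and 18 tests) and over 74 cytosines. In simulated data, recovery was required only of the exact permutation test, with all 74 cytosines changed and little spread between plants. The quasi-binomial model was run on the same simulated data without such a requirement. All CG and CHG sites were named, with the 8 CHH sites of largest difference, the one highest in *fwa* and those against the others. The sites, samples and tests were chosen with earlier results of these data known, and the family of 18 tests and the logit tests outside the *fwa* context levels were added after seeing the data. Alternatives covered read minimums, pooling, medians, control libraries, left-out libraries, a replicate block and a quasi-binomial model. Reference sequence came from RefSeq TAIR10.1, and Python 3.11.15 with scipy 1.17.1 was used.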

Additional observations from a re-analysis of the deposited data

Results flagged for a closer look

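In 20 of 47 groups of 4 dCas9-MQ1v values examined, 1 plant lay far from the other three, and it was Rep1 and higher in all 20. Chance flags about 1 in 20 independent groups, but these groups are the same 4 plants at single sites and at averages of those sites, so the count repeats 1 plant many times. Its gap to the next plant was 0.845 to 0.985 of the whole range. The levels were 43.1% for CG and 1.19% for CHG over all regions, 37.9% for CG and 0.849% for CHG in region 2, and 38.6% for CG, 1.86% for CHG and 0.357% for CHH in region 3. The CG sites of region 2 were 13038361 (27.1%), 13038364 (37.1%), 13038385 (66.3%), 13038468 (42.1%) and 13038476 (16.9%). In region 3 they were 13038575 (49.0%), 13038582 (55.3%), 13038596 (62.0%), 13038606 (50.2%), 13038678 (10.0%) and 13038686 (4.59%). The CHG sites were 13038491 (1.41%) and 13038583 (1.86%). No value of region 1 or of the *MSH3* amplicon was among them.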

How the results depend on the processing

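No level by context or region and no ratio changed direction under the alternatives run, and none was called on the percent scale, so no call could be lost. Of the single cytosines, 10 CHH sites turned from higher to lower than *fwa* without Rep1, 3 in region 2 and 7 in region 3. On the logit of the level, 7 differences passed the threshold (adjusted p = 0.0429, exact permutation test). They were 17.7 percentage points for CG and 1.37 for CHH against *fwa*, -68.9, -12.7 and -3.67 for CG, CHG and CHH against Col-0, -33.7 for CG against TRBIP1-dCas9-MQ1v and 12.1 for CG in the *MSH3* amplicon. The count of called cytosines moved from 0 to 25 with the quasi-binomial model and to 3 without adjustment; on the logit scale it was 0, or 28 unadjusted. Leaving out each library gave 9.27 to 20.8 percentage points for CG and 0.0444 to 0.409 for CHG against *fwa*, the lowest without Rep1 in both cases. For CHH the range was 1.20 to 1.59. Over the median cytosine the CHH difference was 0.112 percentage points, since most CHH sites lie outside region 1. With a replicate block over the 2 shared numbers the differences were 26.7, 0.578 and 1.08 for CG, CHG and CHH (exact permutation p = 0.167, the smallest possible). The numbers were not taken to pair plants, as the deviations of same-numbered libraries correlated at -0.513, -0.433 and 0.335 with *fwa*, at -0.257, -0.353 and 0.106 with Col-0, and at 0.765, -0.841, 0.676 and 0.636 with TRBIP1-dCas9-MQ1v. With 4 plants against 3, no adjusted call was possible unless many cytosines reached the smallest p.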

Other observations

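The last CHG site of the *MSH3* amplicon, 13044767, read as C in over 50% of reads in every library, including unmethylated *fwa*. It had 52.05% to 52.5% in the 4 dCas9-MQ1v plants, below the 54.2%, 58.2% and 59.9% of *fwa* Rep2, rep1 and rep2 (exact permutation p = 0.0286, not adjusted). The 4 TRBIP1-dCas9-MQ1v plants had 51.95% to 52.5%, and the 3 Col-0 plants had 55.5% to 61.4%. At the CHH site 13044770 the TRBIP1-dCas9-MQ1v plants had 0.103% to 0.137%, and the Col-0 plants 0.00729% to 0.0260%. Both sites divided the libraries as their titles do, BS-PCR against BS-PCRseq, and the reason was not tested. In region 1, the CHH level was 2.61% of the CG level in Rep1, 12.7% in Rep2, 24.6% in Rep3 and 18.1% in Rep4. In Col-0 it was 3.94% to 5.31%, and in TRBIP1-dCas9-MQ1v it was 1.93% to 4.48%. In *fwa*, where the CG level of region 1 was at most 0.322%, it was 43.4%, 153% and 132% in Rep2, rep1 and rep2. Among the dCas9-MQ1v plants, Rep3 had the lowest CG level of region 1 (17.5%), while Rep4 had the highest CHH level (5.82%).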
